A study of Canis lupus familiaris with 39 samples.

Results

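The genes described here encode the proteins of the cytosolic ribosome, measured in 10 normal organs of the dog. The rule used the array's annotation and kept probesets whose only gene symbol starts with RPL or RPS followed by a digit, together with RPLP0, RPLP1 and RPLP2, while the RPS6K kinases were left out. It found 121 probesets of 59 genes, out of 42860 probesets and 15115 genes with a symbol of their own. Of the 59 genes, 28 encode proteins of the large subunit, 20 of the small subunit, 3 the acidic stalk and 7 are paralogues, which are second copies of a ribosomal protein gene. The last, RPS19BP1, encodes a protein named for its binding to RPS19 and is not itself a ribosomal protein. RPL3, RPL11, RPSA and RPS6 are among the ribosomal protein genes with no probeset of a single symbol, and they were not analysed here.

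Brain (cerebrum), heart, jejunum, kidney, liver, lung, peripheral lymph node, skeletal muscle and spleen each had 4 arrays, and pancreas had 3 because the study set 1 pancreas array aside. According to the study's methods the organs came from the same few dogs, were pathologically normal, and stood for both sexes, beagles and mixed breeds, from pups to adults. The labels carry a replicate number but do not say which dog it stands for, and the scan date used as a random factor by the study is not in them. Each value is therefore from 1 organ piece of 1 animal, and p-values measure the spread between these pieces.

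A ribosome is assembled in the nucleolus from ribosomal RNA and one copy of nearly every ribosomal protein, with the stalk proteins present in more copies, and it carries out all protein synthesis in the cytosol. The messages of ribosomal proteins start with a run of pyrimidines, the TOP motif, through which growth signals control their translation as a group. They are among the most abundant messages of almost every cell. A few paralogues are restricted to certain tissues in mammals, and RPL3L, which can take the place of RPL3, is the copy of striated muscle. Ribosomal protein genes also have many processed pseudogenes, so that probes for them are often shared.

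Values are log2 intensities after RMA, the deposited scale, on which a difference of 1 is a doubling. Array medians lay between 3.95 and 4.11, so that a value near 4 is at the level of most probesets of the array. A gene was described by its probeset with the highest mean over the 39 arrays. A gene was called when limma's test gave a Benjamini-Hochberg adjusted p under 0.001 over all probesets, either for any difference among the 10 tissues or for one tissue against the unweighted mean of the other 9. Arrays of one tissue correlated at 0.889 or more over the probesets. The organ labels were checked against marker genes, and 25 of the 28 markers measured were highest in their own tissue, except CD79B and CD3E listed for spleen, which were higher in lymph node, and ACTA1, which was as high in heart as in skeletal muscle. Signal of pancreas acinar genes stood out on 7 arrays outside pancreas, namely skeletal muscle 1, 3 and 4 (summed linear signal 956, 2012 and 5933), liver 3 and 4 (523 and 1295), brain 3 (590) and lymph node 4 (496). It was 82788 to 89574 in pancreas and 87.9 to 183 on all other arrays.

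On the deposited scale, ribosomal protein genes were highest in lymph node and lowest in heart and brain, whereas pancreas came above lymph node after scaling to housekeeping genes. For each array the median was taken over 46 genes of large subunit, small subunit and stalk proteins that reached a tissue mean of 8, each expressed as the difference from the gene's own mean over the 10 tissues. This median was 0.57 ± 0.03 in lymph node, 0.34 ± 0.15 in spleen, 0.30 ± 0.07 in lung, 0.11 ± 0.16 in pancreas, 0.10 ± 0.07 in jejunum, 0.01 ± 0.08 in kidney, -0.19 ± 0.12 in skeletal muscle, -0.26 ± 0.16 in liver, -0.39 ± 0.13 in brain and -0.46 ± 0.19 in heart (mean ± SD, n = 4, pancreas n = 3). The 4 lymph node arrays (0.53 to 0.60) did not overlap with the 4 spleen arrays (0.14 to 0.46), the next in order, whereas every later tissue overlapped with its neighbour in the order. In whole organs, fewer cells of a type and less RNA per cell cannot be told apart.

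**Figure D1:**
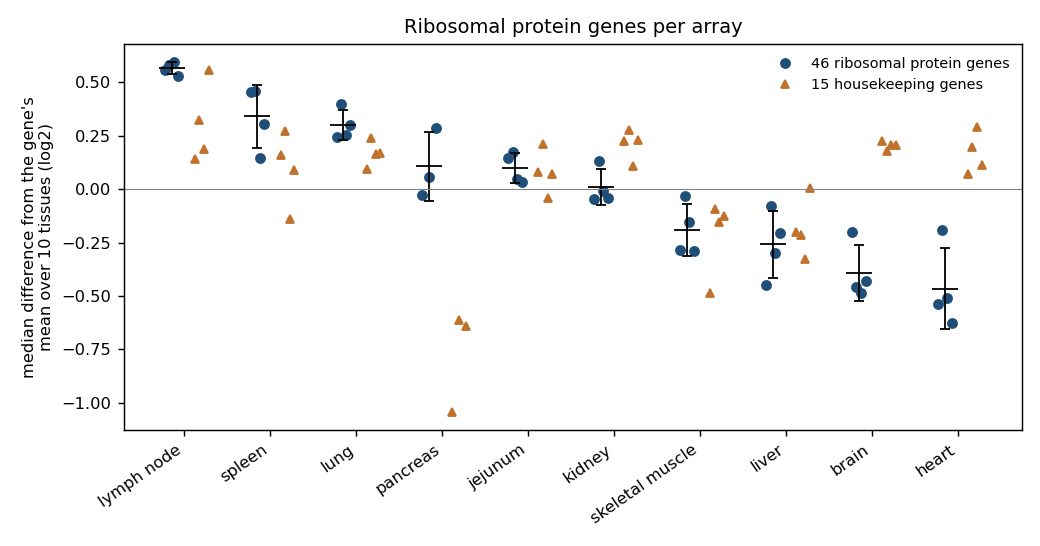
Median over 46 ribosomal protein genes (circles, with mean and SD) and over 15 housekeeping genes (triangles) on each array, as the log2 difference from the gene's mean over 10 tissues, with tissues in the order of the circles. Lymph node arrays sit between 0.53 and 0.60, above every other array, and heart arrays reach down to -0.62, while the housekeeping genes are lowest in pancreas (-1.04 to -0.61). The sign of the median difference of the 59 genes turned in jejunum on both housekeeping scales (-0.49 and -0.028) and in skeletal muscle on one of them (0.033).

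The order depended on the scale. The arrays were also scaled to the 15 housekeeping genes, once to an equal median level of these genes and once by the median of each gene's difference from its own mean, as plotted by the triangles. Pancreas values were shifted up by 0.73 and 0.77 on these scales, and lymph node values by 0.06 and -0.30. With equal housekeeping levels the median difference of the 59 genes was 0.88 in pancreas, 0.69 in lymph node and -1.02 in heart, and it turned to -0.49 in jejunum, against 0.05 on the deposited scale. With gene-centred housekeeping values it was 0.94 in pancreas, 0.32 in lymph node, -0.59 in brain and -0.66 in heart. It turned there to -0.028 in jejunum and to 0.033 in skeletal muscle, against -0.21 in skeletal muscle on the deposited scale. Pancreas thus came first and heart last on both housekeeping scales. Each housekeeping scale moves all genes of an array by the same amount. Counts on these scales have no share of all genes on the same scale beside them, so they are not specific to ribosomal protein genes. The calls below are on the deposited scale unless a housekeeping scale is named.

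Among the 59 genes, 51 differed among tissues (86.4%), against 60.9% of all genes and 84.5% of the 8803 genes that reached a mean of 5 in some tissue. The share was thus near that of all genes above the dim range. The 8 genes not called were RPL10L, RPL22, RPL26L1, RPL32, RPL35, RPL37A, RPL7L1 and RPLP0. RPL10L and RPL37A stayed under 5 in every tissue, at the level of most probesets, while RPL32 was bright and nearly level. RPL32 tissue means spanned only 0.34, the smallest span among the 47 genes with every tissue mean at 8 or more (0.34 to 2.23), followed by RPL35 with 0.61 and RPS26 with 0.64. RPL35 and RPL32 are proteins of the large subunit, and RPS26 is a small subunit protein at the exit of the messenger RNA channel. RPS26 was still called higher in lymph node and lower in heart and liver, so that a small span did not prevent a call.

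The genes moved together across tissues. Over the 10 tissue means the median Pearson r of the 1035 pairs among the 46 genes was 0.83, and 96.9% of pairs were positive. After the tissue means were removed the median r over the 39 arrays was 0.28 with 79.6% of pairs positive, points that share the array and its normalisation. Against the median of the other genes over the 10 tissue means, the likeness was closest for RPL13A (r = 0.98), RPL23 (0.98) and RPS19 (0.98). It was low or negative for RPL26 (0.10), RPL17 (-0.11), RPS10 (-0.31) and RPL3L (-0.54), which are described further on.

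Lymph node had 38 of the 59 genes higher than the mean of the other 9 tissues (64.4%, against 12.4% of all genes) and 1 lower, RPL3L, whose mean over the other tissues includes both striated muscles (8.2% of all genes were lower). The median difference over the 59 genes was 0.65, against -0.03 over all genes. Large subunit genes (20 of 28 higher, median 0.70), small subunit genes (14 of 20 higher, median 0.60) and stalk genes (2 of 3 higher) were all represented. In 42 of the 46 brighter genes the highest tissue mean was that of lymph node. The count was 22 higher with equal housekeeping levels and 9 higher, 3 lower with gene-centred housekeeping values. Gene-centred housekeeping values shift every gene in lymph node by -0.30. No share of all genes on either housekeeping scale is given, so these counts have no background to be set against. Without the 7 arrays with acinar signal the count on the deposited scale was 34 higher.

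In 7 genes every lymph node array lay above every other array, which held for 1.89% of all genes. RPL28, a large subunit protein, had 12.65, 12.49, 12.53 and 12.59 in lymph node, against at most 12.35 on any other array, a difference of 0.92 ± 0.09 from the mean of the other tissues (SE, limma adjusted p = 7.62e-10). RPS16, which sits in the head of the small subunit, had 12.44, 12.52, 12.36 and 12.56 in lymph node and at most 12.27 elsewhere (difference 0.78 ± 0.08, adjusted p = 3e-09). RPLP2, one of the acidic stalk proteins that recruit elongation factors, had 12.26, 11.90, 11.88 and 12.12 in lymph node and at most 11.85 elsewhere. The stalk protein thus cleared the nearest array, lung 1, by a narrow margin. RPL36 had 10.42, 10.23, 11.40 and 10.18 in lymph node, against at most 10.15 elsewhere, and its difference of 1.24 ± 0.21 was a 2.37-fold higher level (adjusted p = 2.19e-05). RPL8, a protein near the peptidyl transferase centre, had 12.70, 12.58, 12.64 and 12.54 in lymph node, against at most 12.51 elsewhere. RPL15 and RPS18 completed the group with lymph node ranges of 12.42 to 12.77 and 12.44 to 12.55. Their nearest other arrays were at 12.41 in spleen and 12.35 in jejunum.

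Lymphocyte genes were also higher in lymph node, as a list of that cell type is bound to be. All 11 measured genes of the list were called higher there (12.4% of all genes were). Their summed linear signal was 4705 to 9642 in lymph node, 2637 to 3807 in 3 spleen arrays and 674 in spleen 3, 566 to 1561 in jejunum, 210.4 to 725 in lung and 145 to 274 in the other tissues. The part of lymphocytes in the lymph node result was not tested. Adipocyte signal stood out in lymph node 4 (6519, against 183 to 1061 in the other lymph node arrays), and its ribosomal protein median of 0.53 was the lowest of the 4 by a small margin.

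Spleen and lung came next. Spleen had 9 genes higher (15.3%, against 6.94% of all genes), namely RPL13A, RPL19, RPL27, RPL35A, RPL5, RPL7, RPS19, RPS21 and RPS23, and again RPL3L lower (5.76% of all genes). RPS19, the small subunit protein most often mutated in human Diamond-Blackfan anaemia, had 12.46, 12.52, 11.76 and 12.28 in spleen, which overlapped with lymph node (12.25 to 12.56) and, through the third array, with lung. Its spleen difference was 0.68 ± 0.13 (adjusted p = 0.000185). With equal housekeeping levels 16 genes were higher in spleen, and with gene-centred housekeeping values 2, with no share of all genes on those scales to set them against. The spleen count also rested on few arrays: it was 1 without spleen 2, 2 without spleen 1 and 3 without spleen 4. RPS19 itself was not called without spleen 1 (0.61, adjusted p = 0.00352), spleen 2 (0.59, adjusted p = 0.00432) or spleen 4 (0.67, adjusted p = 0.0016). Spleen 3 had both the lowest ribosomal protein median of spleen (0.14, against 0.30 to 0.46) and the lowest lymphocyte signal, while haemoglobin and other erythroid genes were high in all 4 spleen arrays (summed signal 2052 to 5421) and reached at most 134 elsewhere. The part of these cells was not tested. Lung had 4 genes higher (6.78%, against 8.59% of all genes), RPL10, RPL28, RPLP2 and RPS16, and RPL3L lower (5.06% of all genes). The share of higher genes was below that of all genes at this cut-off, although all 46 brighter genes had positive differences in lung (0.02 to 0.69). At an unadjusted p under 0.05, 39 of the 59 genes were higher in lung and 2 lower, against 2949 and 3665 of all 15115 genes. At the adjusted cut-off the lung count was 2 without lung 1 and 0 by limma on both housekeeping scales (21 with equal housekeeping levels and 8 with gene-centred values at an unadjusted p under 0.05). RPL10, a late-joining protein of the large subunit, had 12.24, 12.29, 12.19 and 12.21 in lung, a tight group within the range of lymph node and pancreas (difference 0.69 ± 0.13, adjusted p = 8.9e-05). RPL10 was not called in lung on the housekeeping scales (0.67, adjusted p = 0.00919, and 0.52, adjusted p = 0.00202).

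**Figure D2:**
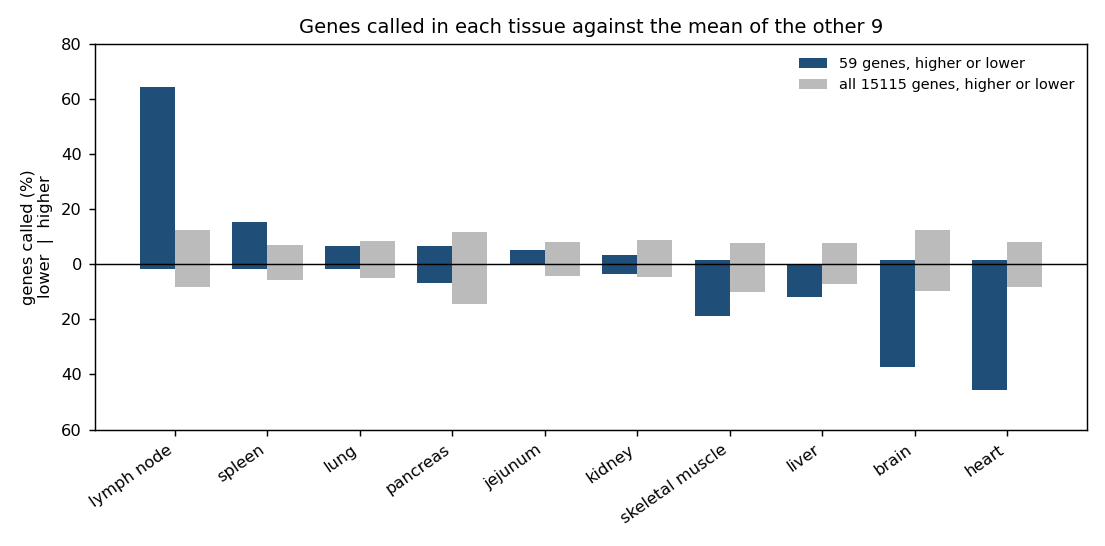
Share of genes called higher (upward) or lower (downward) in each tissue against the mean of the other 9 tissues, for the 59 ribosomal protein genes (blue) and all 15115 genes (grey), in percent. Blue bars exceed grey ones upward in lymph node (64.4%) and spleen (15.3%) and downward in heart (45.8%), brain (37.3%), skeletal muscle (18.6%) and liver (11.9%). With equal housekeeping levels the pancreas count turned to 44 genes higher and 1 lower and the jejunum count to 0 higher and 10 lower, and with gene-centred housekeeping values 49 were higher in pancreas and skeletal muscle had 2 higher and 2 lower. These scales shift all genes of an array alike (pancreas up by 0.73 and 0.77), and the grey bars are for the deposited scale only.

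Heart and brain stood at the other end. Heart had 27 genes lower (45.8%, against 8.38% of all genes) and 1 higher, RPL3L (8.24% of all genes), with a median difference of -0.48. The count of lower genes was 15 without heart 4, when 2 were higher. RPL7, a large subunit protein, had 11.25, 11.35, 10.91 and 10.67 in heart, against means of 11.36 in skeletal muscle and 12.51 in lymph node, and its difference of -1.07 ± 0.11 was a 2.09-fold lower level (adjusted p = 5.56e-09). Heart and skeletal muscle overlapped in RPL7, since skeletal muscle 3 was at 10.88. RPS16 was likewise low in heart, at 10.96, 11.39, 10.97 and 10.93, with a difference of -0.78 ± 0.08 (adjusted p = 2.37e-09). Of the 28 large subunit genes every one had a negative difference in heart, and 15 were called lower.

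Brain had 22 genes lower (37.3%, against 9.77% of all genes) and 1 higher, RPS10 (12.3% of all genes), with a median difference of -0.37. The count of lower genes was 14 without brain 2 and 16 without the 7 arrays with acinar signal, and 2 genes were higher without jejunum 2 or without skeletal muscle 4. RPS10 in brain was not called with gene-centred housekeeping values (0.44, adjusted p = 0.00198) or with its median probeset (0.61, adjusted p = 0.0129). RPL10 had 10.83, 9.72, 10.26 and 10.16 in brain, and its difference of -1.51 ± 0.13 was a 2.86-fold lower level (adjusted p = 1.71e-11). The lowest heart array, at 10.64, lay below the highest brain array in RPL10, so the groups met. RPLP1, a stalk protein, had 9.45, 8.85, 8.89 and 8.72 in brain (difference -1.01 ± 0.14, adjusted p = 4.23e-07), and RPL36 had 8.73, 8.21, 8.48 and 7.88 (difference -1.24 ± 0.21, adjusted p = 1.82e-05). In 19 of the 46 brighter genes brain held the lowest tissue mean, and in 15 heart did. With gene-centred values both tissues had the housekeeping genes slightly above their mean over tissues, with array medians of 0.18 to 0.23 in brain and 0.07 to 0.29 in heart. To reach equal housekeeping levels, however, brain values were shifted up by 0.15, while heart values were shifted by -0.47. In brain the direction of the housekeeping genes thus depended on the measure. With gene-centred housekeeping values 35 genes were lower in heart and 32 in brain, and with equal housekeeping levels 48 were lower in heart and 8 in brain.

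Skeletal muscle and liver were lower to a lesser extent. Skeletal muscle had 11 genes lower (18.6%, against 10.1% of all genes) and RPL3L higher (7.77% of all genes), with a median of -0.21. Leaving out skeletal muscle 1, 3 and 4, with acinar signal, keeps 1 skeletal muscle array whose spread is taken from the other tissues. Only sizes of difference are therefore given for it. The median was then -0.03, against -0.21 with all 4 arrays, and the RPL17 difference was -0.996. Without all 7 arrays with acinar signal, which also keeps 1 skeletal muscle array, the median was -0.048 and the RPL17 difference -1.02. Without skeletal muscle 4 alone the count of lower genes was 5, and without skeletal muscle 3 it was 7, while 2 were higher without pancreas 2. On both housekeeping scales 2 genes were lower. The other array, skeletal muscle 2, had the highest ribosomal protein median of the 4 (-0.03, against -0.29 to -0.15). Liver had 7 genes lower (11.9%, against 7.09% of all genes), namely RPL24, RPL27, RPL3L, RPLP1, RPS26, RPS29 and RPS3. None was higher by limma with moderated or ordinary variances (7.81% of all genes were), and 1 was at an unadjusted p under 0.05. The count of lower genes was 3 without liver 1 and 4 without liver 3, and 1 on both housekeeping scales. It was also 1 without the 7 arrays with acinar signal, which leaves 2 liver arrays, and RPL3L was then not called in liver (-1.44, adjusted p = 0.00114). RPS29, a small subunit protein with a zinc finger, had 12.12, 12.29, 12.28 and 12.15 in liver, below every other array (at least 12.36), a pattern that 0.364% of all genes showed in liver. The size was small, -0.50 ± 0.06 (adjusted p = 8.55e-08).

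Pancreas, jejunum and kidney lay near the middle, with counts below the share of all genes called in both directions. Pancreas, an organ with a very high rate of secretory protein synthesis, had 4 genes higher (6.78%, against 11.9% of all genes), RPL10, RPLP1, RPS27L and RPS3, and 4 lower (6.78%, against 14.3%), RPL26, RPL3L, RPS10 and RPS28. The count of higher genes was 0 by limma without pancreas 2 or without pancreas 3 (10 and 7 at an unadjusted p under 0.05) and 2 without pancreas 1. With all arrays, 3936 of all 15115 genes were higher in pancreas at that unadjusted cut-off, against 13 of the 59. The count of lower genes was 2 without pancreas 1. Among genes that reached a mean of 5 in some tissue, the median pancreas difference was -0.44, and the 15 housekeeping genes had a median of -0.90 with 9 called lower. The 59 ribosomal protein genes, with a median of 0.08, did not move with these. RPLP1 had 10.20, 10.50 and 11.02 in pancreas, overlapping with lymph node (10.33 to 11.20), and its difference was 0.76 ± 0.16 (adjusted p = 0.000198). RPLP1 was not called without pancreas 2 (0.80, adjusted p = 0.00134) or pancreas 3 (0.54, adjusted p = 0.0186).

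Jejunum had 3 genes higher (5.08%, against 8.15% of all genes), RPL28, RPS10 and RPS19BP1, and 0 lower by limma with moderated or ordinary variances (4.18% of all genes), with 1 lower at an unadjusted p under 0.05. RPS19BP1 had 8.22, 8.66, 8.22 and 8.47 in jejunum, a difference of 1.10 ± 0.19 (adjusted p = 3.57e-05), and overlapped with lymph node (7.43 to 8.54). It was not called with equal housekeeping levels (0.55, adjusted p = 0.0146) or with its median probeset (0.82, adjusted p = 0.00518). In heart RPS19BP1 was lower, with 6.21, 6.13, 6.08 and 6.08. Kidney had 2 genes higher (3.39%, against 8.92% of all genes), RPL17 and RPS28, and 2 lower (3.39%, against 4.78%), RPL22L1 and RPS10. RPS28, a small protein of the small subunit, had 12.81, 12.88, 12.71 and 12.80 in kidney (difference 0.51 ± 0.10, adjusted p = 0.000246). It overlapped with lymph node (12.51 to 12.85). Each kidney count was 1 without kidney 1, 2 or 4.

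**Figure D3:**
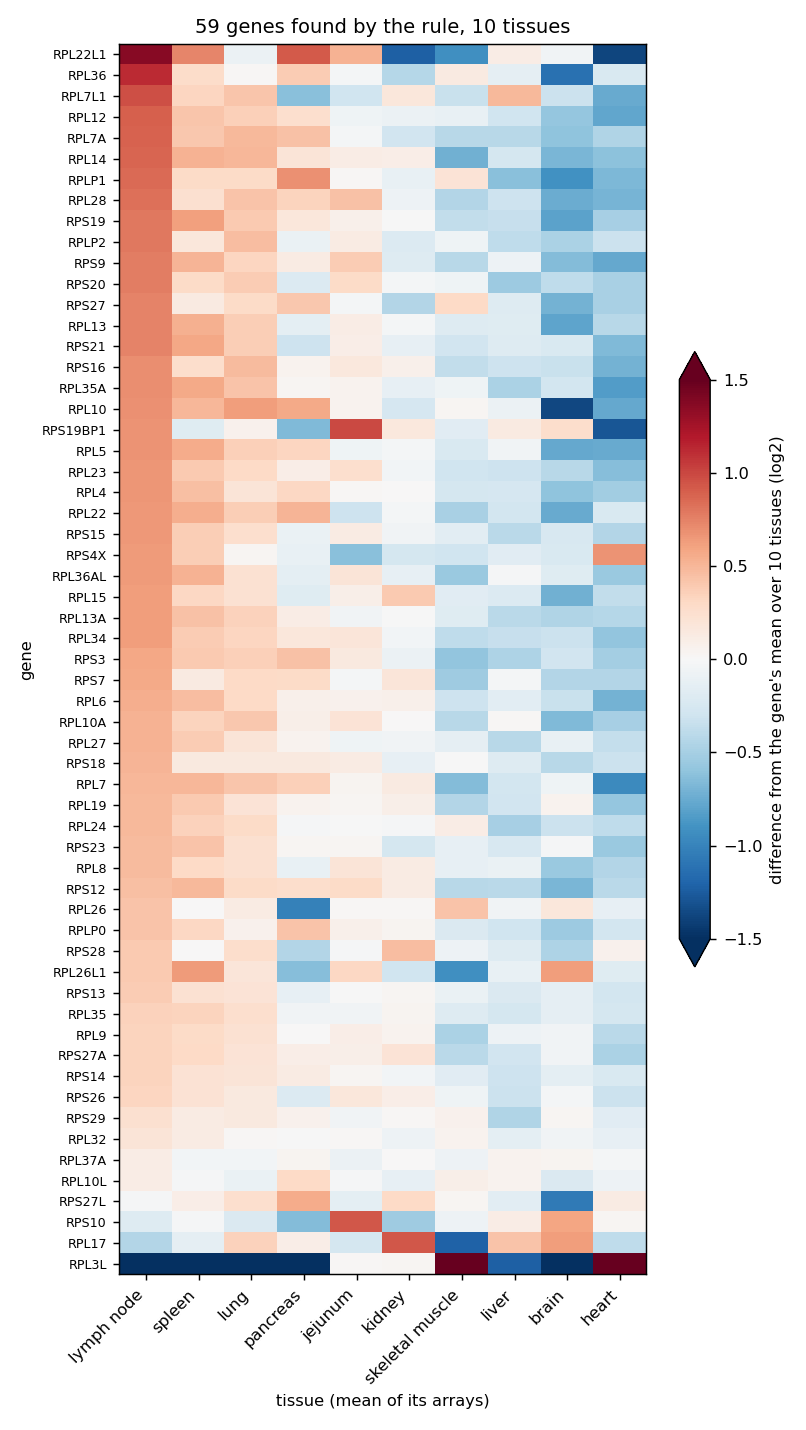
Difference of each tissue mean from the gene's mean over 10 tissues (log2, colour limited to ±1.5) for the 59 genes, sorted by the lymph node value, with tissues in the order of the ribosomal protein median. Red fills the lymph node column and blue the heart and brain columns for most genes, while RPL17, RPS10 and RPL3L at the bottom run another way. The median difference of these genes turned to -0.49 and -0.028 in jejunum on the housekeeping scales and to 0.033 in skeletal muscle on the gene-centred one.

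RPL3L, the striated muscle copy of RPL3, had the widest range of the 59 genes. It had 10.99, 10.57, 11.16 and 10.61 in skeletal muscle and 10.19, 10.40, 10.19 and 10.49 in heart, against 3.14 to 6.64 on all other arrays. Skeletal muscle was 65.5-fold above the mean of the other 9 tissues (log2 difference 6.03 ± 0.21, adjusted p = 2.27e-21), and heart 44.0-fold (5.46 ± 0.21, adjusted p = 3.79e-20). Both references include the other striated muscle. The mean of both muscles against the mean of the other 8 tissues gave a log2 difference of 6.47 ± 0.16 (adjusted p = 7.24e-26). Heart minus skeletal muscle was -0.51 ± 0.28 and did not pass (adjusted p = 0.316), although all 4 heart arrays lay below all 4 skeletal muscle arrays. The skeletal muscle arrays were thus above every other array, as in 0.827% of all genes.

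The other probesets of RPL3L gave the same separation of muscles from other tissues. The second had 10.59 to 11.20 in skeletal muscle and 10.44 to 10.75 in heart, with a heart minus skeletal muscle difference of -0.29 ± 0.15 (adjusted p = 0.299). The third had 6.94, 10.04, 10.58 and 9.88 in skeletal muscle and 9.06 to 9.78 in heart, with a difference of 0.19 ± 0.39 (adjusted p = 0.873). The low array of the third probeset, skeletal muscle 1, was not low on the first, so the sign of the heart and skeletal muscle difference depended on the probeset. On the first probeset jejunum (6.64, 4.23, 5.82 and 4.97) and kidney (5.13, 5.15, 5.85 and 5.60) stood above the level of most probesets. On the third, kidney was at 3.51 to 3.68 and jejunum at 3.70 to 4.35, at that level. Means on the second were 4.38 in jejunum and 4.30 in kidney, against 3.74 to 3.97 in lung, spleen, liver and brain. The myocyte list was high in both muscles (summed signal 72187 to 83297 in skeletal muscle and 57589 to 60753 in heart), with 141 to 1475 elsewhere, and its jejunum range was 330.5 to 1257.

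**Figure D4:**
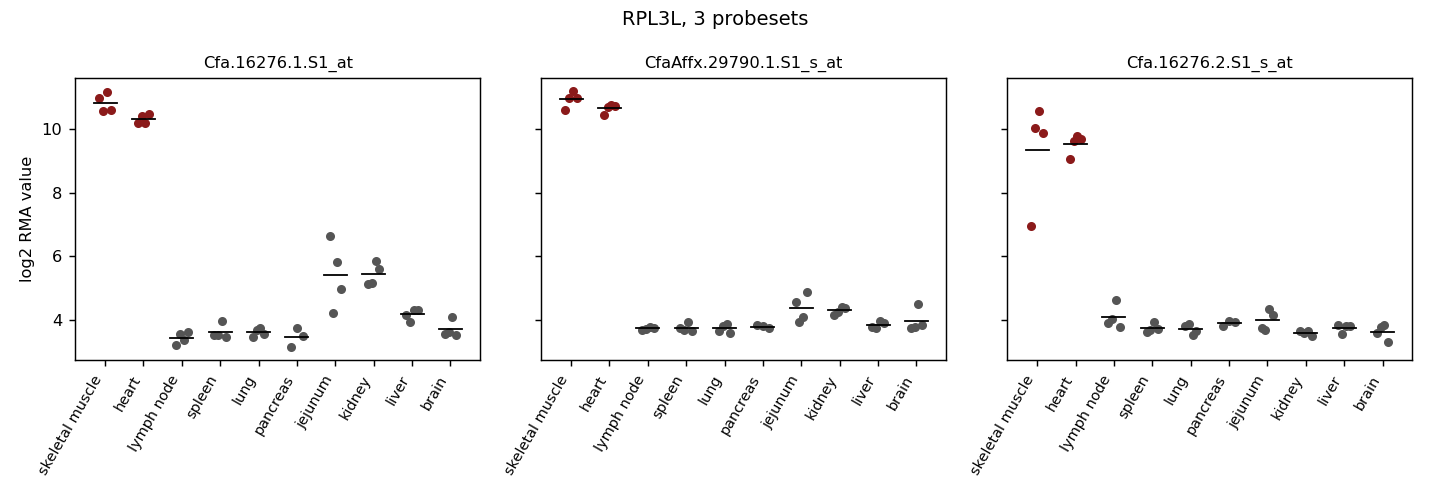
Log2 RMA values of RPL3L on each array (points) with tissue means (bars), for its 3 probesets, skeletal muscle and heart in red and the other 8 tissues in grey. Muscle arrays lie at 9.06 or above on all 3 except skeletal muscle 1 on the third (6.94). Jejunum and kidney have means of 5.41 and 5.43 on the first probeset and 4.38 and 4.30 on the second.

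The 5 genes whose 10 tissue means ran most like those of RPL3L, out of 4062 compared, were SMPX (r = 0.97), PDHX, HSPB6, FITM1 and MRPL35, all at 0.97. SMPX, a small muscle protein, had tissue means of 10.29 in skeletal muscle and 10.03 in heart, against 3.25 to 4.15 elsewhere. PDHX, a subunit of the pyruvate dehydrogenase complex, had 9.83 in skeletal muscle and 9.72 in heart, against 6.62 to 7.86 elsewhere. The points of these correlations share arrays, and they fall into a muscle pair and the rest.

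The other paralogues did not share a pattern. RPL22L1, the copy of RPL22, had 8.99, 10.26, 9.17 and 9.92 in lymph node (difference 1.52 ± 0.22, a 2.87-fold higher level, adjusted p = 1.24e-06), the largest rise among the 59 genes in that tissue. It had 6.58, 7.46, 6.38 and 6.91 in heart (difference -1.54 ± 0.22, adjusted p = 1.15e-06) and 6.49, 7.35, 7.04 and 7.07 in kidney (difference -1.36 ± 0.22, adjusted p = 1.01e-05). The lymph node arrays overlapped with jejunum (8.19 to 9.28), spleen (8.40 to 9.41) and pancreas (8.77 to 9.63), and none of them met the heart or kidney arrays. RPL22 itself was dim, with a mean of 4.52 over the arrays, and was not called (F test adjusted p = 0.00439).

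RPS27L, a copy of RPS27 that responds to p53 in human cells, ran apart from its parent gene. It had 10.89, 10.41, 10.40 and 10.27 in brain, below every other array (at least 11.01), which held for 0.715% of all genes in brain. Its brain difference was -1.18 ± 0.12, a 2.27-fold lower level (adjusted p = 3.82e-10), and the second probeset gave -1.74 ± 0.14 with no overlap either. Elsewhere the probesets differed in their calls, as the second was lower in spleen (-0.72 ± 0.14, adjusted p = 0.000245) and higher in heart (0.64 ± 0.14, adjusted p = 0.00072), where the first was not called. RPS27L was higher in pancreas, at 11.96, 12.28 and 12.11 (0.62 ± 0.13, adjusted p = 0.000222). In lymph node it had 11.31 to 11.67, a level within the range of most tissues. RPS27 was also lower in brain (-0.79 ± 0.17, adjusted p = 0.000488) but higher in lymph node (0.83 ± 0.17, adjusted p = 0.000322). Likeness with the median of the other genes was 0.42 for RPS27L and 0.79 for RPS27.

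RPL36AL, a copy of RPL36A, followed the common pattern. It had 11.54, 11.58, 11.45 and 11.72 in lymph node (0.71 ± 0.13, adjusted p = 7.41e-05), 10.57, 10.55, 10.58 and 9.82 in heart (-0.61 ± 0.13, adjusted p = 0.000536) and 10.78, 10.54, 9.66 and 10.51 in skeletal muscle (-0.62 ± 0.13, adjusted p = 0.000447). RPL7L1, a nucleolar relative of RPL7, and RPL26L1, nearly identical to RPL26, were not called in any contrast, with F test adjusted p of 0.0257 and 0.0521. RPL7L1 arrays scattered widely, from 5.09 to 7.84 within spleen alone. RPL10L, the testis copy of RPL10 in mammals, lay at a mean of 4.01, the level of most probesets, and no testis was sampled.

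Several core ribosomal protein genes departed from the group. RPL17, which lines the exit tunnel of the large subunit, had 9.58, 10.06, 9.94 and 9.90 in kidney (1.04 ± 0.18, adjusted p = 2.26e-05) and 7.20, 8.07, 7.15 and 8.43 in skeletal muscle (-1.35 ± 0.18, a 2.55-fold lower level, adjusted p = 2.5e-07). In lymph node it was at 7.98 to 8.80, a difference of -0.49, the only negative one among the 46 brighter genes. Its probesets disagreed. A second gave 1.09 ± 0.30 in kidney (adjusted p = 0.00671) and -1.69 ± 0.30 in skeletal muscle (adjusted p = 3.69e-05), whereas the third gave -0.16 ± 0.17 (adjusted p = 0.525) and -0.02 ± 0.17 (adjusted p = 0.954). The third was about equally high in spleen, pancreas and lymph node, with 8.84 to 9.56 in lymph node and 7.33 to 8.35 in heart.

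RPS10, a small subunit protein of the head, had 7.72, 7.49, 7.75 and 7.35 in jejunum (1.04 ± 0.11, adjusted p = 1.04e-08) and 7.45, 7.22, 6.97 and 7.30 in brain (0.66 ± 0.11, adjusted p = 1.91e-05). Those tissues overlapped with each other. It had 5.60, 5.96 and 6.43 in pancreas (-0.72 ± 0.13, adjusted p = 3.4e-05) and 6.03, 6.0, 6.30 and 6.13 in kidney (-0.59 ± 0.11, adjusted p = 0.000147). Its probeset was dim for a ribosomal protein gene, under 8 in every tissue. RPL26, which contacts the large subunit near the tunnel exit, was dim too and lay below every other array in pancreas, at 3.81, 4.69 and 3.99 against at least 4.72, a pattern that 2.67% of all genes showed there (-1.13 ± 0.14, adjusted p = 9.37e-08).

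Genes of human Diamond-Blackfan anaemia, a failure of red cell production from loss of 1 copy of a ribosomal protein gene, were listed as a group, and 12 of 16 were measured. In lymph node 9 of the 12 were higher (64.4% of the 59 genes and 12.4% of all genes were) and 0 lower by limma (0 also at an unadjusted p under 0.05), with a median of 0.60, and RPS10, RPL26 and RPS28 were the 3 not called there. In brain 6 were lower and 1 higher (37.3% and 1.69% of the 59 genes, 9.77% and 12.3% of all genes). In heart 5 were lower and 0 higher by limma, with 0 higher at an unadjusted p under 0.05 (45.8% and 1.69% of the 59 genes, 8.38% and 8.24% of all genes). In spleen 4 were higher (15.3% of the 59 genes, 6.94% of all genes). These genes are members of the set, and no difference from the rest of it was tested. RPL5, which forms a particle with RPL11 and the smallest ribosomal RNA of the large subunit, had 12.32, 12.57, 12.49 and 12.59 in lymph node and 12.56, 12.63, 12.02 and 12.28 in spleen, overlapping groups that were both called higher. It had 11.30, 11.12, 10.67 and 11.10 in brain and 11.20, 11.47, 11.25 and 10.34 in heart, both called lower. Of the stalk genes, RPLP1 and RPLP2 were called higher in lymph node and lower in brain. RPLP0, the stalk base, had differences of 0.47 in lymph node and -0.61 in brain and was not called (F test adjusted p = 0.0191).

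Other genes of translation were set beside the members. FAU and RACK1, further parts of the small subunit, were higher in lymph node (0.91 ± 0.11 and 0.67 ± 0.13, adjusted p = 4.51e-08 and 0.000124) and lower in brain (-0.48 ± 0.11 and -1.02 ± 0.13, adjusted p = 0.000573 and 1.04e-07). Of 12 elongation factors and other genes with a TOP motif, 4 were higher in lymph node and 1 lower (12.4% and 8.2% of all genes). In brain 5 of the 12 were lower and 1 higher (9.77% and 12.3% of all genes). EEF1A1, the main carrier of aminoacyl-tRNA, was higher in lymph node (1.09 ± 0.25, adjusted p = 0.000755) and lower in heart (-1.65 ± 0.25, adjusted p = 2.85e-06) and skeletal muscle (-1.94 ± 0.25, adjusted p = 1.74e-07). Its muscle and neuron counterpart EEF1A2 was higher in heart (5.34 ± 0.43), skeletal muscle (3.96 ± 0.43) and brain (2.86 ± 0.43) and lower in lymph node (-1.96 ± 0.43). PABPC1, the cytosolic poly(A) binding protein, was higher in lymph node (1.02 ± 0.15) and lower in brain, heart and skeletal muscle (-0.84, -1.01 and -1.63).

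Ribosome biogenesis genes were higher in lymph node in 33 of 63 cases and lower in 0 by limma (2 at an unadjusted p under 0.05), with a median difference of 0.79, against 0.65 for the 59 ribosomal protein genes. Of all genes, 12.4% were higher and 8.2% lower in lymph node. NPM1, a histone chaperone of the nucleolus, rose most in lymph node, with a mean of 9.13 there and 6.91 in the other tissues (2.21 ± 0.23, adjusted p = 3.86e-09). NOP56 (1.63 ± 0.14) and FBL (1.53 ± 0.24), which act in the methylation of ribosomal RNA, were also higher. In spleen 2 of the 63 were called higher, a share below the 6.94% of all genes at this cut-off, with a median of 0.14, while the ribosomal protein median was 0.37. At an unadjusted p under 0.05, 19 of the 63 were higher in spleen and 3 lower, against 2696 and 2969 of all 15115 genes. In heart 2 biogenesis genes were lower and 1 higher (8.38% and 8.24% of all genes), and in brain 6 lower and 2 higher (9.77% and 12.3% of all genes), shares no higher than those of all genes. Of 38 initiation factor genes, 9 were higher in lymph node (12.4% of all genes), of which 6 encode subunits of eIF3. None was lower there by limma (8.2% of all genes), and 1 was at an unadjusted p under 0.05. Over the 10 tissue means the 5 other genes most like the median of the members, out of 4012 compared, were LOC475410 (r = 0.97), NCL (0.96), DDX50 (0.95), ARL6IP1 (0.94) and LOC489638 (0.94). NCL, nucleolin, had means of 11.04 in lymph node, 9.58 in brain and 9.49 in heart.

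The measured size of the lymph node difference varied with the level of the probeset. Over all 121 probesets the median difference was 0.10 for 29 probesets with a mean under 5, 0.62 for 26 at 5 to 8, 0.91 for 10 at 8 to 10, 0.78 for 32 at 10 to 12 and 0.53 for 24 at 12 or more. Probesets at the top of the scale thus gave smaller differences than those in the middle. Called higher were 4, 8, 6, 28 and 16 probesets in these bins. The tissue means of RPL10L, RPL37A and RPS4X were under 5 throughout.

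**Figure D5:**
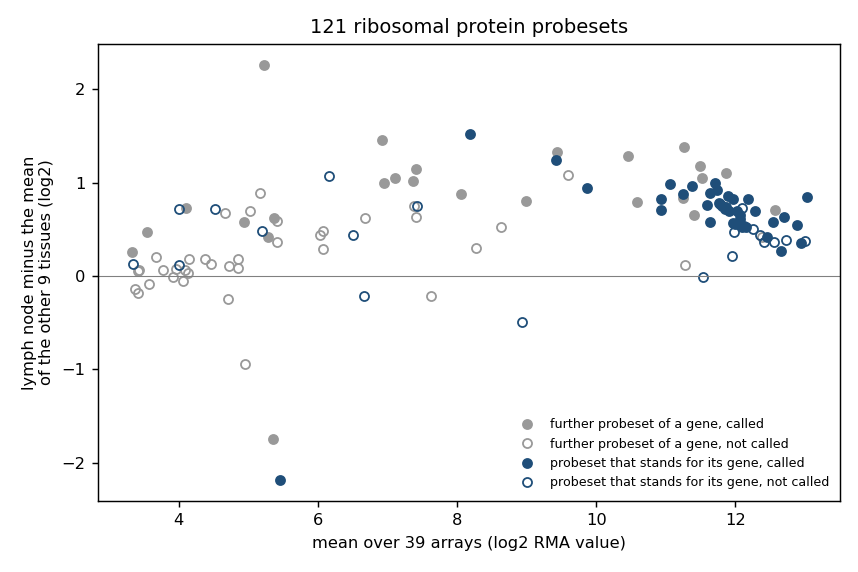
Lymph node minus the mean of the other 9 tissues (log2) against the mean over 39 arrays (log2 RMA value) for the 121 probesets, blue where the probeset stands for its gene, filled where called. Filled points crowd between 10 and 12 and their height shrinks toward 13, while the open points under 5 lie around 0, and both negative filled points near 5 are RPL3L.

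Shared probes limit what a single gene's value means. Of the 59 probesets that stand for a gene, 35 have the suffix of probesets shared among transcripts, 8 that of probesets which can bind unrelated ones, 2 that of one gene's variants and 14 none. Restricted to the 41 probesets without a suffix, 33 genes remained. Of these, 7 were higher in lymph node (11% of all genes with such a probeset), 7 lower in brain (8.87%) and 4 lower in heart (7.7%), so that the heart count was near the share of all genes. Only 9 of the 33 were large subunit, small subunit or stalk genes with a tissue mean of 8 or more. Of the 9, 6 were higher and 0 lower in lymph node, 6 lower and 0 higher in brain and 3 lower and 0 higher in heart, with medians of 0.80, -0.81 and -0.42. The filter used the highest tissue mean, so a gene could pass through a tissue where it is high. The RPLP1 probeset was at 7.71 in lung and 6.50 in brain, and that of RPL6 at 8.02 in spleen and 6.39 in brain. The counts of the 9 are therefore not a separate test of the lymph node result. In spleen none of the 33 was called higher by limma (6.47% of all genes with such a probeset), and 5 were at an unadjusted p under 0.05. With all probesets, 2696 of all 15115 genes were higher in spleen at that cut-off. Where a gene had several probesets (32 genes), 0 had probesets called in opposite directions in any tissue.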

How the data were processed

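RNA of 39 organ samples (10 tissues) was hybridised by the authors to Affymetrix Canine 2.0 arrays. The deposited log2 values were made by the authors in Partek, which the submitters' processing notes also name, where raw intensities were first adjusted for probe GC content and sequence and then passed through RMA (background correction, quantiles, median polish) over all 39 arrays. They were used as deposited (42860 probesets, 0 missing). Symbols came from the array's probe table, in which 29254 probesets have 1 symbol, 439 several and 13167 none. 75 probesets with several symbols including a ribosomal one were left out, and the comparison of RPL3 in striated muscle could not be made.

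limma (version 3.58.1, under R version 4.3.3) was fitted with 1 mean for each tissue, and p-values were adjusted over all probesets. Scan date, not in the labels, could not be included. Data were simulated for the lymph node contrast over 42860 probesets. Of the changes, 44.8% of 67 at 1.5-fold, 64.2% of 67 at 2-fold and 95.5% of 66 at 4-fold were recovered, with 0 false calls. So few changed probesets make the adjusted cut-off stricter than in the measured contrast, where 12.4% of all genes were higher. The recovered shares therefore do not carry over to the measured data, in which small differences can still be missed. The number of arrays limits the precision. Quantile normalization and saturation can compress differences.

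Genes named are the paralogues and their parents, the extremes of each contrast, the 3 steadiest, the stalk genes, RPL5, RPS19 and the 5 most similar profiles, and further genes were named after their values were seen. Members and lists were chosen with earlier results of these data known. Alternatives were the replicate block, variance models, scalings, probeset choices, filters and leaving out arrays. No sequences or genome positions are given.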

Additional observations from a re-analysis of the deposited data

Results flagged for a closer look

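In 387 groups of 4 arrays (42 genes named in the text, and the ribosomal protein median, within each tissue), 28 arrays lay far from the other 3 by Dixon's ratio, and chance alone flags about 1 group in 20. Spleen 3 accounted for 6 of them, with RPL10 at 11.81 (others 12.18 to 12.24), RPL17 at 8.47 (8.89 to 8.93), RPL35A at 12.13 (12.40 to 12.44), RPLP0 at 11.68 (12.43 to 12.55), RPS16 at 11.86 (12.08 to 12.12) and RPL3L at 3.96 (3.48 to 3.53). In brain, RPL26L1 was at 7.89 and RPS29 at 12.87 in brain 1 (others 6.82 to 6.96 and 12.62 to 12.64). RPL35 was at 11.93, RPL8 at 11.05 and RPL3L at 4.11 in brain 3 (others 12.72 to 12.88, 11.70 to 11.80 and 3.54 to 3.62). In heart 4, RPL36AL was at 9.82 (others 10.55 to 10.58) and RPS4X at 3.77 (4.94 to 5.03). RPLP2 was at 10.74 in heart 3 (10.96 to 11), and RPS16 and RPS19 were at 11.39 and 11.56 in heart 2 (10.93 to 10.97 and 10.97 to 11.06). RPLP0 was at 10.48 in skeletal muscle 1 (others 12.10 to 12.36), the widest gap among these, RPS21 at 12.30 on the same array (11.70 to 11.77) and RPL22L1 at 8 in skeletal muscle 2 (6.99 to 7.14). In lung 2, RPL10L was at 4.11 (3.84 to 3.87), RPL19 at 13.23 (13.03 to 13.06) and RPS23 at 12.53 (12.24 to 12.29). In lymph node 1, RPS18 was at 12.55 (12.44 to 12.45) and RPS3 at 12.90 (12.56 to 12.60). RPL26L1 was at 7.30 in liver 4 (5.92 to 6.15), RPS27 at 10.53 in liver 2 (10.80 to 10.85), RPLP1 at 9.67 in jejunum 4 (9.95 to 10.01) and RPL23 at 11.59 in kidney 4 (11.88 to 11.93).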

How the results depend on the processing

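The RPL3L differences in skeletal muscle, heart and striated muscle kept their direction and call under every alternative run. When arrays were scaled to equal housekeeping levels, the median difference was 0.69 in lymph node, 0.59 in spleen, 0.88 in pancreas, -0.038 in skeletal muscle, -0.22 in brain, -0.35 in kidney, -0.49 in jejunum and -1.02 in heart, with 22, 16, 44, 0, 2, 1 and 0 genes higher in lymph node, spleen, pancreas, lung, brain, kidney and jejunum and 48, 10, 8, 2, 1 and 1 lower in heart, jejunum, brain, skeletal muscle, liver and pancreas. With gene-centred housekeeping values, chosen after the data were seen, the median was 0.94 in pancreas, 0.32 in lymph node, 0.12 in lung, 0.033 in skeletal muscle, -0.028 in jejunum, -0.061 in liver, -0.26 in kidney, -0.59 in brain and -0.66 in heart, with 49, 9, 2, 2, 1, 0 and 0 genes higher in pancreas, lymph node, spleen, skeletal muscle, kidney, lung and brain and 3, 2, 1 and 1 lower in lymph node, skeletal muscle, liver and pancreas. With unsuffixed probesets only (33 genes), 21 differed among tissues, 7 were higher in lymph node, 7 in pancreas, 0 in spleen and 0 in lung, and 7 were lower in brain, 4 in heart, 2 in liver, 1 in kidney and 1 in skeletal muscle, and the medians were 0.30 in lymph node, 0.026 in lung, 0.012 in spleen, -0.081 in liver, -0.079 in skeletal muscle, -0.089 in kidney and -0.25 in brain and heart. With the median probeset of each gene, the lung median was 0.21, and 11 genes were higher in pancreas, 2 in heart, 1 in kidney and 0 in brain and jejunum, with 1 lower in jejunum and 2 in spleen. RPL17 in kidney turned to -0.16 there, and RPS19 in spleen to -0.00065 there and with unsuffixed probesets, where its probeset has a mean near 3.30. Equal array medians gave 1 gene higher in pancreas, dropping dim probesets 14 higher in spleen, and a variance trend 1 lower in kidney.

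Also chosen after the data were seen, leaving out dim member genes gave a lymph node median of 0.69, 0 higher in brain, 1 lower in kidney and 2 lower in pancreas. Leaving out skeletal muscle 1, 3 and 4, chosen likewise, gave a lymph node median of 0.62, a skeletal muscle median of -0.032 and 2 higher in brain. Without the 7 arrays with acinar signal, chosen likewise, the skeletal muscle median was -0.048, with 2 higher in brain and 1 lower in liver. Leaving out 1 array at a time, counts of higher genes ran from 31 to 40 in lymph node, 1 to 13 in spleen, 2 to 5 in lung, 0 to 5 in pancreas and 1 to 2 in brain, heart, kidney and skeletal muscle. Counts of lower genes ran from 15 to 30 in heart, 14 to 26 in brain, 5 to 12 in skeletal muscle, 3 to 10 in liver, 2 to 4 in pancreas and 1 to 2 in kidney, and the lymph node median from 0.62 to 0.67. A pairing check used deviations from the tissue means. It found a mean correlation of 0.13 (-0.27 to 0.49) between arrays of the same number in different tissues, over 0.1 in 103 of 171 pairs. Of the 39 arrays, 29 correlated best with their own number, out of at most 4 numbers. Between arrays of different numbers the mean was -0.04, over 0.1 in 69 of 513 pairs. The main fit did not use the number, so its p-values leave out any such pairing. In a separate fit with the replicate number as a block, 1 count moved, genes higher in brain, to 2, with 39 higher in lymph node. The cause of these changes was not tested. Array number limits the smallest differences.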

Other observations

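Mitochondrial ribosomal proteins, encoded by a separate set of nuclear genes for the ribosome inside mitochondria, ran unlike the cytosolic set. Of 73 measured genes, 33 were higher in heart and 0 lower by limma (0 at an unadjusted p under 0.05), with a median difference of 0.85, and 29 were higher in skeletal muscle and 0 lower (2 at an unadjusted p under 0.05), with a median of 0.69. Of all genes, 8.24% were higher and 8.38% lower in heart, and 7.77% higher and 10.1% lower in skeletal muscle. The cytosolic set had medians of -0.48 and -0.21 in those tissues. MRPL48 had a mean of 9.31 in heart, against 7.07 in the other tissues (2.24 ± 0.16, adjusted p = 3.15e-13), and MRPL12 9.68 in skeletal muscle, against 7.67 (2.01 ± 0.14, adjusted p = 6.88e-13). In pancreas 28 of the 73 were lower and 1 higher (14.3% and 11.9% of all genes), with a median of -0.73. MRPL48 had a mean of 5.51 there, against 7.49 in the other tissues. In lung 12 were lower (5.06% of all genes) and 0 higher by limma (2 at an unadjusted p under 0.05, and 8.59% of all genes by limma). In lymph node 3 were higher and 3 lower, with a median of -0.11. These lymph node shares lay below the 12.4% and 8.2% of all genes. The difference between the cytosolic and mitochondrial sets was not tested.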
